A study of Mus musculus with 12 samples.

Results

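LM8 cells at passage 24 were compared with Dunn cells at passage 86 on 6 arrays, 3 for each line. Dunn is a mouse osteosarcoma line of low metastatic activity, and LM8 is a highly metastatic subline obtained from it by selection in vivo. The comparison sets young cultures of the selected subline against the parental line after long culture, and asks which features of LM8 the parental cells had not reached by culture. All non-control probes of these arrays entered on the log2 scale, and a probe was tested if it was well above background on all 3 arrays of at least 1 of the 2 groups. This left 20863 of 39429 probes, which stand for 12198 of the 20144 genes with a matched probe.

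The series holds 12 arrays in all, from Dunn at passages 25 and 86 and LM8 at passages 24 and 91, called early and late here. The late cells came from the early ones by serial culture, and all were thawed and grown for 3 further passages in the same medium. The methods give 3 samples per condition from frozen cell pellets and do not say that these were separate cultures, so p-values measure only the spread between these samples, which may be technical. The other pairing, late LM8 with early Dunn, shares no array with the first. Line and time in culture change together in each pairing and cannot be told apart within 1 of them.

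Osteosarcoma is a bone tumour whose cells make osteoid, the collagen-rich matrix that osteoblasts mineralize, and it spreads mainly to the lung. Invading cells cross basement membranes, bind matrix through integrins and release proteases. Cultured lines can also shift in expression over many passages.

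The labelled cell type was checked first. Of 27 osteoblast genes with a probe, 22 were tested and 16 were measured on all 6 arrays, among them Runx2 and Sp7, the transcription factors that specify osteoblasts, and Alpl, the phosphatase of mineralization. Of the markers of other cell types, 2 of 9 endothelial, 2 of 10 epithelial, 4 of 10 skeletal muscle, 4 of 10 adipocyte, 5 of 11 macrophage and osteoclast, and 8 of 12 chondrocyte genes were tested. The genes Cdh5 (endothelium), Cdh1 (epithelium), Myod1 (muscle) and Fabp4 (adipocytes) were not well above background on any of the 12 arrays. Other members of these lists were. Measured on all 6 arrays were 2 endothelial, 2 epithelial, 3 skeletal muscle, 2 adipocyte, 3 macrophage and osteoclast and 3 chondrocyte genes. They included Kdr, Krt14, Acta1, Pparg, Itgam and Col2a1.

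On the 6 arrays, 53.3% to 59.7% of probes were well above background and no spot was saturated. Signals are given as log2 values with the 75th percentile of each array at 0, for the probe of a gene with the highest mean signal. They rank groups for 1 gene but not genes against each other. The median SD of a tested probe was 0.25 in early LM8 and 0.33 in late Dunn. Replicate 1 of late Dunn stood apart, with correlations of 0.919 and 0.923 to the other 2 arrays over all probes, whereas those 2 correlated at 0.986 and the early LM8 arrays at 0.984 to 0.987. Its dimmest value well above background was -4.21, against -6.10 to -6.46 on the other 5 arrays, so its dim values often read higher.

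A total of 1240 of 12198 genes differed between early LM8 and late Dunn (10.2%, over 2-fold with adjusted p under 0.05 by limma, Benjamini-Hochberg over all probes tested). In early LM8, 616 genes were higher (5.05%) and 624 were lower (5.12%), so 49.7% of the calls were higher, and the median difference over all tested probes was -0.07 on the log2 scale. In 1128 of these genes the probe with the highest mean signal was itself called. For all 1128 the arrays of the groups did not overlap, but a call with 3 arrays in each group leaves little room for overlap. This adds no support, and some genes that were not called, such as Calr and Smo, did not overlap either. Among the 10764 genes measured on all 6 arrays, 805 were called (7.48%), 342 higher and 463 lower. The other calls include genes that entered the test through the group in which they are bright, and these had to differ. Without late Dunn replicate 1, 952 genes were higher and 708 lower. Leaving out 1 early LM8 array gave 683, 615 and 706 calls (replicates 1, 2 and 3), and leaving out late Dunn replicate 3 gave 766. With the signals unscaled, as in the deposited table, 71.4% of the calls were higher.

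**Figure D1:**
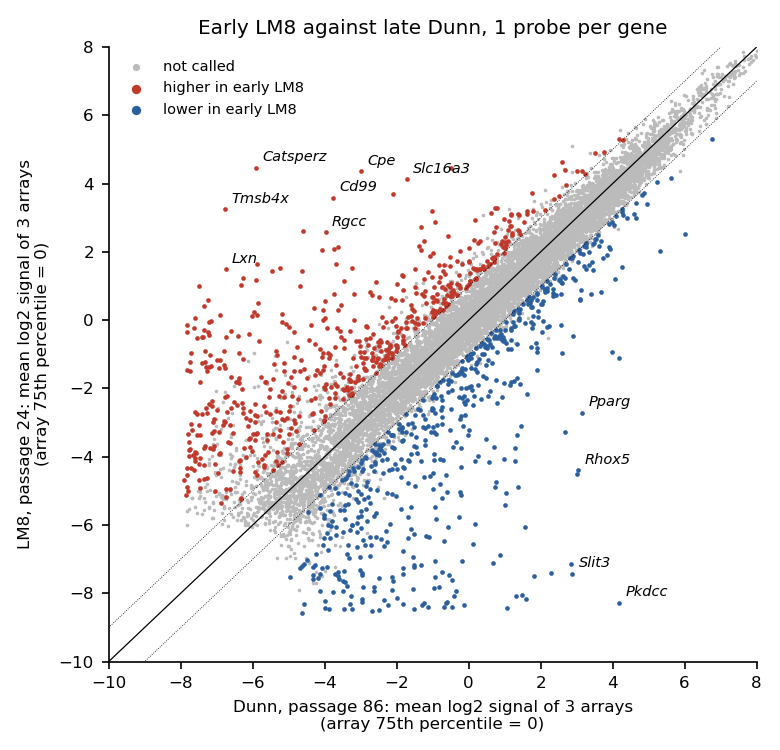
Mean log2 signal of late Dunn (horizontal) against early LM8 (vertical), each over 3 arrays with the array's 75th percentile at 0, for 1 probe per tested gene. The solid line marks equal signal and the dotted lines a 2-fold difference; red genes were called higher and blue genes lower in early LM8, with Catsperz far to the upper left and Pkdcc far to the lower right.

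The sharpest contrasts were genes well above background on all 3 arrays of one group and on none of the other. There were 241 of these, 139 below that limit on the late Dunn arrays and 102 on the early LM8 arrays. All 241 entered the test through their bright group and so had to differ. Their p-values and any lack of overlap therefore add no support. Their fold can only be bounded. A fold written as "at least" sets the mean of the bright group against the dimmest signal that each array of the other group still called well above background, or the probe's own signal where that was higher. Some spots brighter than that dimmest signal were not well above background. A stricter limit would therefore give smaller folds, and "at least" holds only for the limit used.

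Pkdcc, a secreted kinase needed for skeletal growth, had the highest bound among the genes that were lower. It read 4.04, 4.13 and 4.38 on the late Dunn arrays and -8.02, -8.24 and -8.56 on the early LM8 arrays. It was at least 1520-fold lower in early LM8 (adjusted p = 1.59e-05, limma).

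Slit3, a secreted ligand of Robo receptors, read 2.77, 2.78 and 3.09 in late Dunn and -7.72, -6.38 and -8.15 in early LM8, at least 615-fold lower. Hc, which encodes complement component C5, read 2.09, 2.35 and 2.45 against -6.82, -6.74 and -8.64, at least 411-fold lower. Neither gene was well above background on any early LM8 array. Dnali1, a dynein light intermediate chain of cilia and flagella, was at least 601-fold lower, Esx1, an X-linked homeobox gene, at least 253-fold, and Limch1 at least 235-fold, with adjusted p of 4.11e-05, 2.23e-05 and 3.81e-05 (limma).

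Sgce, the imprinted gene of epsilon-sarcoglycan, read 2.14, 1.38 and 1.91 in late Dunn and -7.34, -7.02 and -8.12 in early LM8. It was at least 293-fold lower (adjusted p = 5.64e-05, limma). Its imprinted neighbour Peg10 read -3.12, -3.41 and -3.19 against -8.46, -8.18 and -8.79 and was lower as well, by at least 8.85-fold (adjusted p = 7.83e-05). Neither was well above background on any of the 6 LM8 arrays, early or late.

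In the other direction, Catsperz, a subunit of the sperm calcium channel, read 4.79, 4.38 and 4.24 in early LM8 and -5.74, -6.15 and -5.82 in late Dunn. It was at least 931-fold higher in early LM8 (adjusted p = 2.23e-05, limma). Tmsb4x, which encodes the actin-sequestering thymosin beta 4, read 3.57, 3.45 and 2.72 against -5.06, -8.47 and -6.76, at least 454-fold higher. The late Dunn arrays spread widely for Tmsb4x, with replicate 1 the highest, yet none was well above background.

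Lxn, the carboxypeptidase inhibitor latexin, was at least 136-fold higher, Tesc, a calcium-binding protein, at least 113-fold and Usp11, a deubiquitinase, at least 109-fold. Sdr39u1 was at least 95.3-fold higher by 1 probe, while its second probe was not called (adjusted p = 0.05). Prrx2, a homeobox gene, was at least 71.4-fold higher and the small nucleolar RNA Snord123 at least 64.7-fold.

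Genes with a signal well above background on all 6 arrays gave measured folds. The rises that led this set were Cd99 (7.35 ± 0.52 log2, SE), a cell surface glycoprotein, Cpe (7.34 ± 0.3), the carboxypeptidase that trims prohormones, and Rgcc (6.54 ± 0.22), a regulator of the cell cycle. Rgcc read 2.85, 2.59 and 2.28 in early LM8 and -3.75, -4.09 and -4.06 in late Dunn. Slc16a3, which exports lactate, read 4.35, 4.11 and 3.96 against -1.41, -1.74 and -2.01, a difference of 5.86 ± 0.22 (adjusted p = 5.89e-05, limma). The groups lay far apart and each was tight for both of these genes.

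The other rises named by size were Fstl3 (6.07), a secreted binder of activin, Eva1b (5.82), Cyba (5.79), a subunit of NADPH oxidase, Specc1 (5.77), Bdh1 (5.36), 3-hydroxybutyrate dehydrogenase, Crip1 (4.97), a LIM domain protein, Prph (4.75), the intermediate filament peripherin, and Art3 (4.65). Their adjusted p ran from 5.34e-05 for Bdh1 to 0.00125 for Fstl3. A second probe of Specc1 was not called (log2 2.81, adjusted p = 0.294), and Crip1 rests on 2 early LM8 arrays because its spot on replicate 2 had been marked as an outlier.

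Among the falls, Trp53i11, a p53-inducible gene, fell by 7.5 log2 units and Rhox5, an X-linked homeobox gene, fell by 7.43. Pdgfb, the B chain of platelet-derived growth factor, read -5.32, -5.46 and -5.41 in early LM8 and 1.26, 0.92 and 0.89 in late Dunn and fell by 6.42 ± 0.18 (adjusted p = 3.66e-05, limma). Pparg, the nuclear receptor of fat cell differentiation, read -2.56, -2.89 and -2.69 against 3.38, 2.86 and 3.23 and fell by 5.87 ± 0.21 (adjusted p = 5.22e-05). The groups did not overlap for either gene. The late Dunn value of Trp53i11 rests on 2 arrays.

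Bmyc, of the Myc family, fell by 6.1, Akr1c13, an aldo-keto reductase, fell by 5.5, Cyp1b1, a cytochrome P450, fell by 5.4, and Agpat3, an acyltransferase of phospholipid synthesis, fell by 5.29. Lsp1, an F-actin binding protein, fell by 5.05 and Pomgnt2, an enzyme of dystroglycan glycosylation, fell by 5.03. Rhox2h and Rhox2e fell by 5.95 and 5.61. The Rhox2 genes are near-identical copies whose probes may read each other's transcripts, so their separate values are uncertain.

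The line difference was then read on the 6 arrays that the comparison did not use. Late LM8 differed from early Dunn in 3740 of 12333 genes (30.3%), with 1766 higher (14.3%) and 2004 lower (16.2%), where a gene with probes called both ways counts in each. With the signals unscaled, 8906 were higher and 241 lower (97.4% of the calls higher). Of the 1240 genes called in early LM8 against late Dunn, 693 were called in the same direction there, 55.9% of the first list and 18.5% of the second. They were 304 genes higher and 389 lower in LM8. A further 63 genes (5.08%) were called in opposite directions. A test of the change in the line difference between the pairings, over all 12 arrays, called 1121 of 12115 genes (9.25%), and 403 of these are among the 1240 (32.5%). That test contains the difference by which the 1240 were picked, so a higher share among them is built in.

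**Figure D2:**
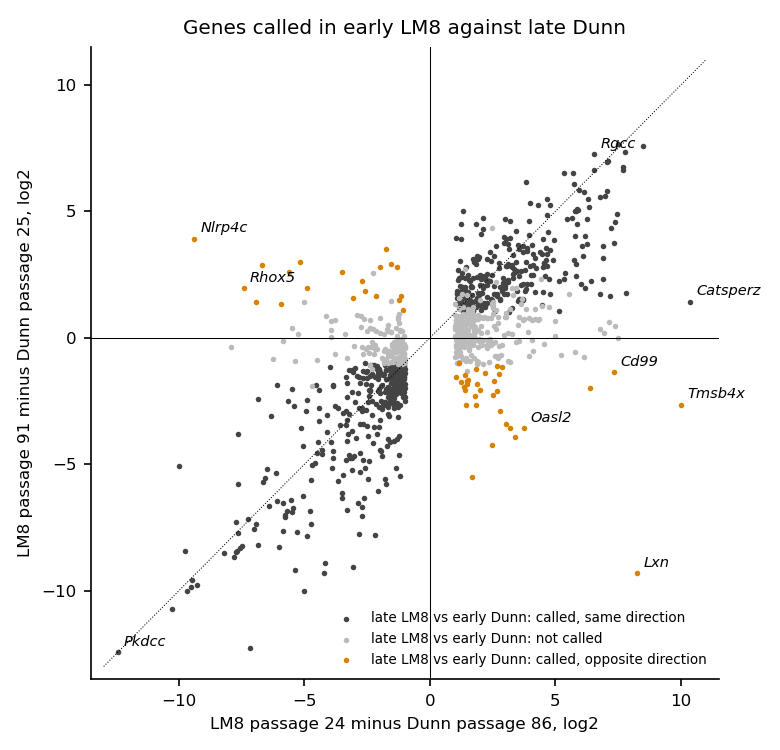
Difference of early LM8 from late Dunn (horizontal) and of late LM8 from early Dunn (vertical), both log2, for genes whose plotted probe was called in the first comparison. Genes near the dotted line of equal values, such as Rgcc and Pkdcc, have similar fitted values in both pairings, while Lxn, Tmsb4x, Cd99, Oasl2, Rhox5 and Nlrp4c lie where the signs are opposite.

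Many of the sharp losses of early LM8 were also seen in the second pairing. Pkdcc read 3.89 ± 0.21 in early Dunn and -8.53 ± 0.56 in late LM8 (mean and SD, n = 3), at least 1560-fold lower in late LM8. Slit3, Hc, Sgce and Limch1 were well above background on every early Dunn array and on no late LM8 array, with bounds of at least 1080-fold, 622-fold, 642-fold and 398-fold lower. Pdgfb (-6.66), Pparg (-6.54), Trp53i11 (-8.22) and Bmyc (-6.44) were also lower in late LM8. For these last 4, well above background on all 12 arrays, the change between the pairings did not pass the test (adjusted p of 0.224 or more, limma). For Trp53i11, early Dunn and late Dunn rest on 2 arrays each.

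Gains in both pairings included Slc16a3 (5.1 in the second), Specc1 (5.03) and Rgcc (7.25, well above background on 1 of 3 early Dunn arrays), for which the test of the change gave adjusted p from 0.215 to 0.348. Usp11, Tesc and Sdr39u1 were not well above background on any Dunn array, and late LM8 was at least 42.3-fold, 74.5-fold and 42.5-fold higher than early Dunn. Mmp2, a gelatinase, read 0.64, 0.87 and 0.73 in early LM8 and -2.72, -2.71 and -2.57 in late Dunn. It was higher by 3.41 ± 0.16 (adjusted p = 0.000128, limma) and by 2.99 in the second pairing.

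Of the 139 genes below the limit in late Dunn, 99 were below it on all 3 early Dunn arrays, 116 were above it on all 3 late LM8 arrays, and 81 met both conditions. Of the 102 below it in early LM8, 66 were below it on all late LM8 arrays, 44 were above it on all early Dunn arrays, and 30 met both. The early Dunn arrays had 39.4% to 51.4% of probes well above background, fewer than the other 9 arrays, and the part of this in the counts was not tested.

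A second pattern was a low value in late Dunn while early Dunn was nearer to early LM8. Cd99 read 4.02, 3.66 and 3.08 in early LM8 and -2.65, -4.23 and -4.42 in late Dunn, with means of 4.33 in early Dunn and 2.97 in late LM8. Cyba had means of 3.7 in early LM8, 3.07 in early Dunn, 2.48 in late LM8 and -2.09 in late Dunn. The line difference changed between the pairings by 8.72 log2 units for Cd99 (adjusted p = 1.75e-05, limma) and 6.37 for Cyba (adjusted p = 7.84e-06).

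Catsperz had means of 2.55 in early Dunn and 3.97 in late LM8, and Tmsb4x of 3.93 and 1.29. Lox, lysyl oxidase, which cross-links collagen, read 1.59, 1.52 and 1.49 in early LM8 and -4.32, -5.46 and -5.9 in late Dunn, with means of -0.42 in early Dunn and -0.06 in late LM8. Lox was well above background on 1 of 3 late Dunn arrays. In all 3 genes late Dunn was the lowest group. Lxn read 1.6, 1.36 and 1.54 in early LM8 and -4.83, -7.98 and -7.43 in late Dunn and had a mean of 0.9 in early Dunn, but it was not well above background on any array of late Dunn or late LM8.

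The third pattern was a low value in early LM8 with higher values in both late cultures. Rhox5 read -4.21, -4.34 and -4.63 in early LM8 and 3.23, 2.85 and 3.05 in late Dunn, and its means were -0.51 in early Dunn and 1.46 in late LM8. Nlrp4c, of the oocyte-expressed NLRP genes, read 1.23, 1.31 and 1.41 in late Dunn, was at least 208-fold lower in early LM8 and had a mean of 0.16 in late LM8. The line difference changed by -9.4 for Rhox5 (adjusted p = 1.04e-07, limma). Rhox2c, Rhox2e and Rhox2h, which lie beside Rhox5 on the X chromosome, also had their lowest mean in early LM8, with the limit on paralogs given above.

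**Figure D3:**
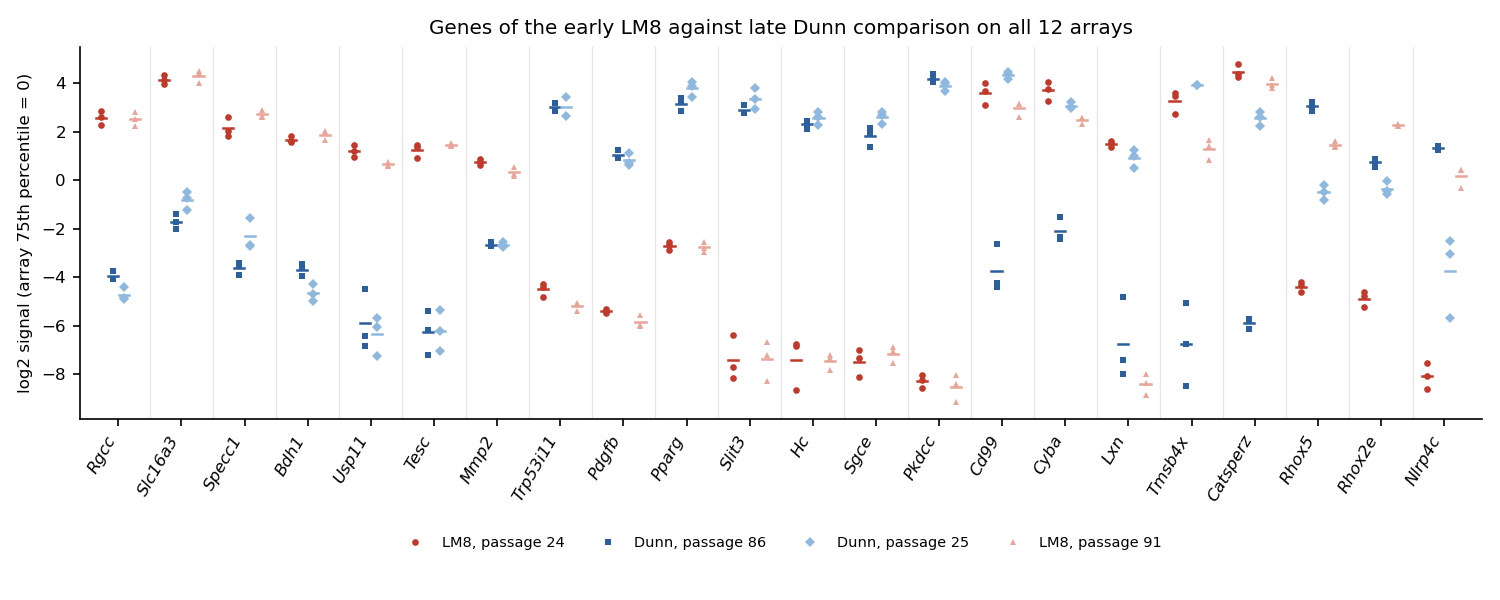
Log2 signal (array 75th percentile at 0) of 22 genes on all 12 arrays; points are arrays and short lines group means, red for early LM8, dark blue for late Dunn, light blue for early Dunn and pink for late LM8. Rgcc to Pkdcc separate by line in both pairings, Cd99 to Catsperz are low in late Dunn, and Rhox5 to Nlrp4c are low in early LM8.

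Among the gene lists, the interferon response had the highest share called higher. Interferons are secreted signals of infection that induce antiviral genes such as Isg15 and the Oas family, and many of these genes carry a GAAA-containing element in their promoters. Of 28 members tested, 11 were higher in early LM8 (39.3%, against 5.05% of all genes) and none was lower, with a median of 1.19 against -0.08 over all genes with 1 probe each. Among the 21 members measured on all 6 arrays, 7 were higher, where 342 of all 10764 genes so measured were. The count depended on single arrays: it was 2 without early LM8 replicate 1 or 2, 6 and 5 without late Dunn replicates 2 and 3, and 16 without late Dunn replicate 1. It was 8 with the slide as a block and 3 with no filter or with the methods' t-test.

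Oas1a, an enzyme activated by double-stranded RNA, read 2.38, 2.51 and 1.28 in early LM8 and -0.98, -2.1 and -0.87 in late Dunn, a difference of 3.37 ± 0.47 (adjusted p = 0.00817, limma). Oasl2 read -0.74, -0.88 and -1.66 against -5.74, -4.97 and -3.81, a difference of 3.75 ± 0.52 (adjusted p = 0.00847). Oasl2 was well above background on 2 of 3 late Dunn arrays. Isg15, a ubiquitin-like modifier, read 3.4, 3.18 and 2.71 against 1.73, 1.68 and 1.45, a difference of 1.47 ± 0.23 (adjusted p = 0.0132). Early LM8 replicate 3 was the lowest early LM8 array for all 3 genes, and the groups did not overlap. Second probes of Oas1a and Isg15 were not called (adjusted p = 0.0784 and 0.0612).

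Oas2 (3.19, well above background on 1 of 3 late Dunn arrays), Oasl1 (2.89, on 2 of 3) and Usp18 (2.53), which removes Isg15 from proteins, were also higher. Usp18 had an adjusted p of 0.0136 that became 0.056 with the slide as a block (limma). The remaining called members were Rtp4 (2.49), Xaf1, Gbp3 (1.42), Irf9 (1.25) and Dhx58 (1.12), with 1 of 2 probes called for Xaf1. The calls of Gbp3 and Irf9 were lost with the slide as a block (adjusted p = 0.0552 and 0.0576). Bst2, Ifitm3 and Trim25 were not called, with differences of 0.49 ± 0.38, 0.18 ± 0.23 and 0.11 ± 0.32.

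In the other pairing none of 25 members tested was higher in late LM8 than in early Dunn and 16 were lower, where 16.2% of all genes were. The test of the change between the pairings called 16 of 28 members, beside 9.25% of all genes. That test includes the 6 arrays on which the list stood out, so it is not separate support. Oasl2 had means of -2.26 in early Dunn and -5.82 in late LM8, and Oas1a of 0.99 and -2.92. The MHC class I list, whose genes present peptides, gave other counts. None of 17 was higher in early LM8 and 2 were lower (11.8%, against 5.12% of all genes). They were Nlrc5, an activator of class I genes (-1.71 ± 0.15, adjusted p = 0.00136), and H2-K1 (-1.14 ± 0.22, adjusted p = 0.029). The H2-K1 call passed in 1 of 6 fits that left out 1 array.

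**Figure D4:**
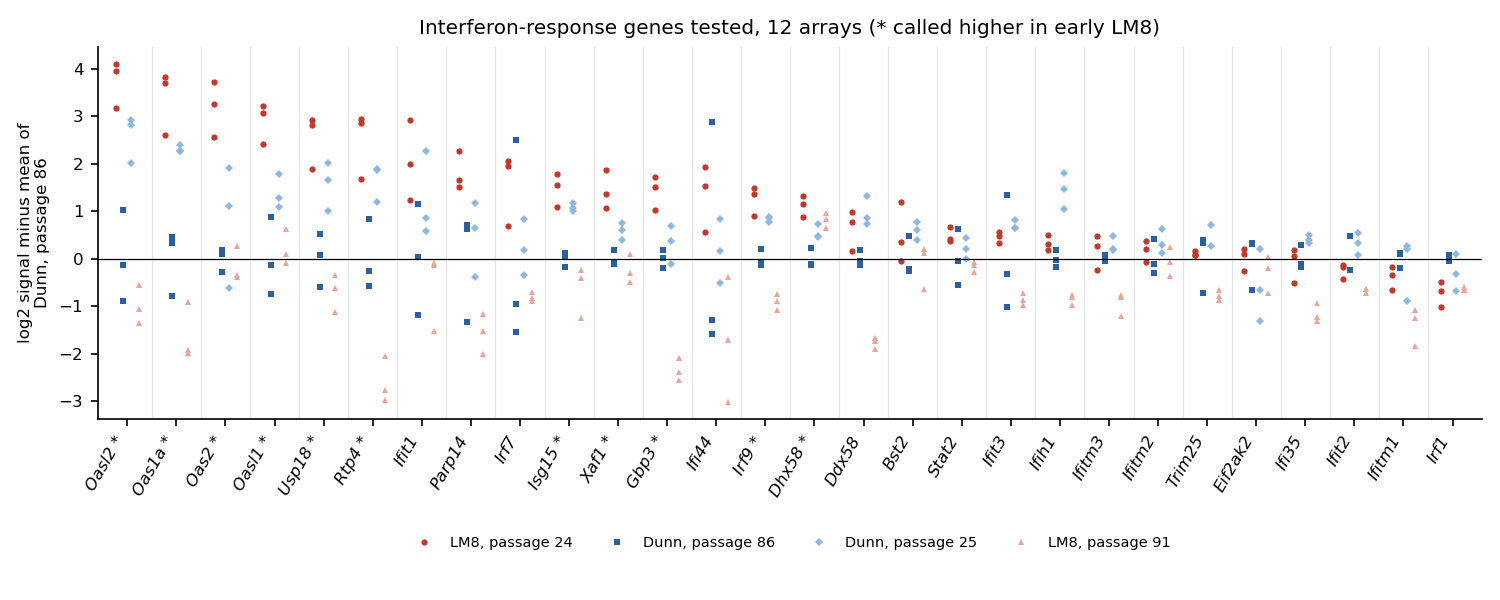
Log2 signal of the interferon-response genes tested, minus the mean of the 3 late Dunn arrays of each gene, on all 12 arrays; genes run from the highest to the lowest difference of early LM8 from late Dunn and stars mark those called higher. Early LM8 points lie above all late Dunn points for the starred genes. Late LM8 points lie lowest for genes that include Rtp4, Gbp3, Irf9, Oas1a and Isg15, and 1 late Dunn array lies far above the other 2 for Irf7 and Ifi44.

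Promoters of called members are shown for the element that this pathway reads. RefSeq windows of 300 bases around the start (GRCm38.p6) were matched for 7 of the 11 called members. The letters GAAANNGAA were searched on both strands, with overlapping matches counted, and were found in 3 of the 7 (42.9%), in 11 of the 16 members with a window that were tested and not called (68.8%), and in 9.76% of all 27025 genes with a window. A match describes letters and not binding, and the difference between called and uncalled members was not tested. The windows are those of Isg15 (chr4:156200769-156201068, minus strand), Oas1a (chr5:120907476-120907775, minus strand) and Gbp3 (chr3:142559794-142560093, plus strand), each 5′ to 3′ with the matches in capitals.
Isg15: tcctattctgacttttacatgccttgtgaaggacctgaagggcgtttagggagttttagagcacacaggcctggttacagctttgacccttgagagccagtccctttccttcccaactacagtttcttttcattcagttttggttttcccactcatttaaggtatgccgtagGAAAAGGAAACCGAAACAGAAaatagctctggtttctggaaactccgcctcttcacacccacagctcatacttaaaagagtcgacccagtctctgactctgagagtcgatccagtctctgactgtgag
Oas1a: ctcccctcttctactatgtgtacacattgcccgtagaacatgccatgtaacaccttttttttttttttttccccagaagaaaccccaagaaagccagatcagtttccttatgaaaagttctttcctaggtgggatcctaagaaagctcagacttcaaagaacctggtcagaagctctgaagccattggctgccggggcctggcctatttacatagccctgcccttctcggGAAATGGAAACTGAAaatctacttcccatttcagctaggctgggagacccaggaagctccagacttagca
Gbp3: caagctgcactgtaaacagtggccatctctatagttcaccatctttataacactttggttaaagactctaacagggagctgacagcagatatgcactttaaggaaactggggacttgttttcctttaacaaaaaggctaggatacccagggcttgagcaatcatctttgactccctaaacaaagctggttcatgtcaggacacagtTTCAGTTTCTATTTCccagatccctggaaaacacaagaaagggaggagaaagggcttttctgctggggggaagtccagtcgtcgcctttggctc
Isg15 holds 3 matches and Oas1a and Gbp3 hold 2 each, and in each window they lie in 1 overlapping run.

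The bone programme was read from genes that osteoblasts use to make and mineralize matrix. Of 22 osteoblast genes tested, 5 were higher in early LM8 (22.7%, against 5.05% of all genes) and none was lower, and the list median was 0.08. All 5 were below the background limit on at least 1 late Dunn array, and none of the 16 members measured on all 6 arrays was called. Omd, the matrix proteoglycan osteomodulin, read -0.36, 1.08 and -0.02 in early LM8 and -5.69, -6.39 and -5.8 in late Dunn, at least 51.8-fold higher. Msx2, a homeobox factor of bone, was higher by 3.41 ± 0.22 (adjusted p = 0.000402; well above background on 1 of 3 late Dunn arrays), Ifitm5, a membrane protein of osteoblasts, by 3.35 ± 0.27 and Phex, the endopeptidase mutated in X-linked rickets, by 2.99 ± 0.43 (limma).

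Tnfrsf11b, which encodes osteoprotegerin, the decoy receptor that restrains osteoclasts, was at least 6.44-fold higher (adjusted p = 0.0132). Omd, Ifitm5 and Phex were also higher in late LM8 than in early Dunn, by 4.02, 2.7 and 4.71, each well above background on 1 of 3 early Dunn arrays, and Msx2 by at least 7.39-fold. Atf4, Sparc and Bglap2, an osteocalcin gene, were not called, with differences of 0.11 ± 0.24, 0.53 ± 0.23 and -0.55 ± 0.27. Of the macrophage and osteoclast markers, Ctsk, cathepsin K, was at least 24.5-fold higher, while Ptprc and Adgre1 were well above background on 1 of the 6 arrays each. Of the chondrocyte markers, Col9a1 was at least 3.73-fold higher, Col10a1 at least 12.4-fold lower, and Hapln1 fell by 6.24 ± 0.5. Hapln1 was well above background on 2 of 3 early LM8 arrays. Tnnt1 was the muscle marker called (2.96 ± 0.41), Pparg and Plin1 (a fall of 1.17 ± 0.27, adjusted p = 0.0579 with the slide as a block) were the adipocyte markers called, and no endothelial or epithelial marker was.

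Genes of the matrix and of adhesion differed in both directions. The basement membrane is a sheet of laminins, type IV collagen, nidogens and perlecan. Of 17 members tested, 6 were lower in early LM8 (35.3%, against 5.12% of all genes) and 3 were higher (17.6%), with a median of -0.19. Among the 13 measured on all 6 arrays, 5 were lower and 1 was higher, where 7.48% of all genes so measured were called. With the slide as a block 5 were lower, the call of Lama2 being lost (adjusted p = 0.0733). Lama1, the laminin alpha 1 chain, read -4.61, -4.71 and -4.35 in early LM8 and -1.33, -0.88 and -0.99 in late Dunn and fell by 3.49 ± 0.2 (adjusted p = 0.000281, limma).

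Nid2, nidogen 2, fell by 2.26 ± 0.3, Lamb1, the laminin beta 1 chain, by 1.94 ± 0.25 and Hspg2, perlecan, by 1.44 ± 0.22, and the laminin chains Lama2 and Lama4 were also called lower. Lama5 (2.67 ± 0.25, well above background on 1 of 3 late Dunn arrays), Col18a1 (1.74 ± 0.27), the source of endostatin, and Col4a6 were higher, Col4a6 by 1 of its 2 probes. Nid2, Lamb1 and Hspg2 were lower in late LM8 than in early Dunn as well, with differences of -4.18, -1.42 and -2.56, and Lama1 was at least 22-fold lower there. Lama5, higher in early LM8 than in late Dunn, was instead lower in late LM8 than in early Dunn (-1.13). It was well above background on 2 of 3 early Dunn arrays.

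Integrins are receptors for these proteins. Of 14 tested, all measured on all 6 arrays, 3 were lower in early LM8 (21.4%, against 5.12% of all genes) and none was higher. Over all genes measured on all 6 arrays, 7.48% were called. Itga8 read -2.1, -2.37 and -2.22 in early LM8 and 0.22, 0.05 and 0.17 in late Dunn and fell by 2.38 ± 0.17 (adjusted p = 0.000556, limma). Itga3 and Itga6, subunits of laminin receptors, fell by 2.16 ± 0.19 and 1.5 ± 0.27. Itgb1, the common beta subunit, differed by -0.16 ± 0.18, which did not pass the test.

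Matricellular proteins and small proteoglycans had 6 members higher (31.6%) and 4 lower (21.1%) of 19, against 5.05% and 5.12% of all genes. Among the 14 measured on all 6 arrays, 3 were higher and 3 lower, where 7.48% of all genes so measured were called. Lum, lumican, which organizes collagen fibrils, read 2.62, 2.32 and 2.93 in early LM8 and -5.85, -4.03 and -3.88 in late Dunn, higher by 7.21 ± 0.55 (adjusted p = 0.000708, limma). Lum was well above background on 2 of 3 late Dunn arrays. Tgfbi, a secreted TGF-beta target, was higher by 4.2 ± 0.19, Sparcl1 by 2.96 ± 0.32 and Ccn2, connective tissue growth factor, by 1.96 ± 0.23, with Ogn and Thbs2 the other members higher. Ccn5 fell by 1.98 ± 0.27 and Fmod, fibromodulin, by 1.22 ± 0.17, with Comp, whose call was lost with the slide as a block (adjusted p = 0.0681), and Epyc the other members lower. Lum was higher in late LM8 too (4.35), while Ccn2 and Sparcl1 differed there by -0.04 and 0.12.

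Of 9 fibrillar collagens, 1 was higher (11.1%, against 5.05% of all genes). This was Col24a1, at least 8.85-fold, a call that was lost with the slide as a block (adjusted p = 0.0724). Col1a1 and Col1a2, the chains of type I collagen, differed by 0.23 ± 0.17 and 0.5 ± 0.25. Of 24 collagen-modifying genes, 2 were higher and 2 lower (8.33% each, against 5.05% and 5.12% of all genes). Lox and P3h2, a prolyl hydroxylase (3.2 ± 0.42, well above background on 2 of 3 late Dunn arrays), were higher. Loxl4 (-1.98 ± 0.41, adjusted p = 0.0892 with the slide as a block) and Loxl2, by 1 of 3 probes, were lower. Loxl4 was well above background on 2 of 3 early LM8 arrays.

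Of 22 matrix proteases and inhibitors, 3 were higher and 2 lower (13.6% and 9.09%, against 5.05% and 5.12% of all genes). Beside Mmp2, Timp4, an inhibitor of metalloproteinases (3.93 ± 0.43), and Mmp17 (1.2 ± 0.27) were higher. The Mmp17 call passed in 1 of 6 fits that left out 1 array. Mmp13, a collagenase, fell by 3.32 ± 0.34 and Adamts9 was at least 23.9-fold lower. Of 15 cadherins and transition factors, 2 were higher and 2 lower (13.3% each, against 5.05% and 5.12% of all genes). Prrx1 (1.71 ± 0.38, adjusted p = 0.063 with the slide as a block) and Cdh2, N-cadherin, were higher, each by 1 of 2 probes. Snai1, a repressor of E-cadherin, fell by 2.95 ± 0.3 and Cdh3, P-cadherin, was at least 3.55-fold lower.

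Wnt signalling works through secreted ligands, Frizzled receptors, secreted antagonists and beta-catenin with its Tcf and Lef partners. Of 21 ligands and receptors tested, 5 were higher in early LM8 (23.8%, against 5.05% of all genes) and 2 lower (9.52%, against 5.12%). Of the 18 measured on all 6 arrays, 4 were higher and 2 lower, where 7.48% of all genes so measured were called. Wnt1 read -0.24, -0.64 and -0.65 in early LM8 and -2.83, -2.73 and -2.68 in late Dunn, higher by 2.24 ± 0.19 (adjusted p = 0.00104, limma), and its second probe was not called (adjusted p = 0.194). Wnt8b was higher by 3.47 ± 0.53, by 1 of 2 probes and with 1 of 3 late Dunn arrays well above background, Wnt5b by 1.42 ± 0.19, Fzd7 by 1.24 ± 0.2 and Fzd8 by 1.04 ± 0.16. Wnt6 read -0.41, 0.22 and -0.42 against 2.0, 2.83 and 1.75 and fell by 2.4 ± 0.34, and Wnt4 fell by 1.07.

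Of the 9 secreted antagonists, 2 were higher and 1 lower (22.2% and 11.1%, against 5.05% and 5.12% of all genes). Frzb was at least 6.02-fold higher and Sfrp4 was higher by 1.04 ± 0.19, a call that passed in 1 of 6 fits that left out 1 array. Cer1 fell by 1.16 ± 0.25, a call lost with the slide as a block (adjusted p = 0.0683). Of 29 transducers and targets, 7 were higher (24.1%, against 5.05% of all genes) and 2 lower (6.9%, against 5.12%). Of the 24 measured on all 6 arrays 4 were higher and 1 lower, where 7.48% of all genes so measured were called. Tcf7 was higher by 1.31 ± 0.17, Rnf43, a ubiquitin ligase that removes Frizzled receptors, by 1.34 ± 0.17 and Apc2 by 2.05 ± 0.28, while Vangl1 was at least 18.8-fold and Nfatc4 at least 5.7-fold higher, beside Nkd2 and Ppp2r5c, the latter called only without the slide as a block (adjusted p = 0.0655 with it). Lef1 was lower, at least 20.9-fold (adjusted p = 0.000268) and Myc fell by 1.09. Ctnnb1, beta-catenin itself, differed by 0.16 ± 0.22, which did not pass the test. In the second pairing Wnt1 and Fzd7 differed by 2.27 and 1.46, whereas Fzd8 and Rnf43 differed by -1.57 and -1.96.

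In the Hedgehog pathway, which patterns growing bone, 2 of 15 members were higher (13.3%, against 5.05% of all genes) and none was lower. None of the 11 measured on all 6 arrays was called. The called members were Ihh, a ligand of growing bone (2.39 ± 0.22, adjusted p = 0.00159; 2 of 3 late Dunn arrays well above background), and Hhat, which palmitoylates the ligand, at least 6.19-fold by 1 of its 2 probes. In the Notch pathway 2 of 15 were higher (13.3%, against 5.05% of all genes), the ligand Jag1 (1.5 ± 0.17) and the target Hey1 (2.67 ± 0.2). In the TGF-beta and BMP pathway 1 of 36 was higher (2.78%, against 5.05% of all genes), the co-receptor Tgfbr3 (1.16 ± 0.16). Another 3 were lower (8.33%, against 5.12% of all genes). They were Bmp7, a ligand that induces bone, at least 73.6-fold, Inhbb, the activin beta B chain (-3.27 ± 0.28), and Acvr1b (-1.01 ± 0.24, adjusted p = 0.0841 with the slide as a block).

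Of 22 members of the FGF, PDGF and IGF axes, 3 were higher and 4 lower, beside 10.2% of all genes called in either direction. The higher ones were Fgf15 (4.05 ± 0.67), Igfbp6 (2.51 ± 0.35) and Igfbp5 (1.56 ± 0.17). The lower ones were Pdgfb, its receptor Pdgfrb, Fgf1, which was not well above background on any early LM8 array, and Igfbp4, which fell by 1.33 ± 0.24. The Igfbp4 call passed in 1 of 6 fits that left out 1 array. Of 12 chemokines and receptors, 1 was called, and it was lower (8.33%, against 5.12% of all genes). Ackr4, a scavenger of chemokines, read -4.96, -4.78 and -5.31 in early LM8 and 0.18, -0.3 and -0.62 in late Dunn, a fall of 4.77 ± 0.27 (adjusted p = 0.000254, limma). Of 20 angiogenic and hypoxia genes, 1 was higher (5%) and 2 were lower (10%), against 5.05% and 5.12% of all genes. Nrp1 was higher by 1.09 ± 0.21, and Vegfc and Angpt4 fell by 2.7 ± 0.39 and 1.24 ± 0.19.

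Of 22 genes linked to osteosarcoma metastasis, 1 was higher (4.55%) and 3 were lower (13.6%), against 5.05% and 5.12% of all genes. S100a4, a calcium-binding protein linked to cell motility, read 2.42, 2.39 and 2.0 in early LM8 and 0.29, 0.65 and -0.14 in late Dunn, higher by 2.0 ± 0.26 (adjusted p = 0.00643, limma). In the second pairing its difference was -2.06, and the line difference changed by 4.06 (adjusted p = 0.000282). Tnfrsf10b, the death receptor for TRAIL, was at least 49.1-fold lower in early LM8 and differed by -5.69 in the second pairing, with 1 of 3 late LM8 arrays well above background. Ndrg1 fell by 1.17 ± 0.2, Cd44, the hyaluronan receptor, was called lower by 1 of 3 probes, a call lost with the slide as a block (adjusted p = 0.0713), and Anxa2 and Nme1 differed by 0.03 ± 0.19 and -0.05 ± 0.2.

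Imprinted genes are read from 1 parental allele. Of 18 tested, 6 were lower (33.3%, against 5.12% of all genes) and none was higher. Of the 12 measured on all 6 arrays 3 were lower, where 7.48% of all genes so measured were called. Beside Sgce and Peg10, the members lower were Plagl1, Mest, Peg12 and Asb4, the last by 1 of its 2 probes. Plagl1, a zinc finger factor, fell by 3.57 ± 0.28 (adjusted p = 0.000828, limma) by 2 of 3 probes. Mest fell by 1.57 ± 0.25 and Peg12 by 1.33 ± 0.17. In the second pairing Plagl1 differed by -3.44, Mest by 0.24 and Peg12 by 0.01. Gnas differed by 0.0 ± 0.22 in the first.

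Of 37 germline and X-linked testis genes with a probe, 8 were tested, of which 4 were lower and 1, Catsperz, was higher in early LM8, against 5.12% and 5.05% of all genes. Of the 4 measured on all 6 arrays, 2 were lower and none was higher, where 7.48% of all genes so measured were called. Those lower were Nlrp4c, Rhox5, Rhox2c and Slx, the last with a fall of 1.22 ± 0.21 (adjusted p = 0.018). In the second pairing 8 of 13 were higher in late LM8 than in early Dunn, where 14.3% of all genes were, and none was lower.

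Proliferation and energy metabolism were read from the genes of mitosis and of glycolysis. Of 37 cell cycle genes, 1 was higher and 1 lower (2.7% each, against 5.05% and 5.12% of all genes). These were Cdc25b (1.18 ± 0.24) and Cdc25a (-1.19 ± 0.27), and both calls were lost with the slide as a block (adjusted p = 0.0607 and 0.0678). Mcm4, Mcm7 and Cdc20 differed by -0.13 ± 0.2, 0.06 ± 0.26 and -0.01 ± 0.17. Of 28 glycolysis genes, 3 were called, beside 10.2% of all genes: Slc16a3 and Ldhb (1.28 ± 0.23) were higher and Aldoc, aldolase C, fell by 3.8 ± 0.26 (adjusted p = 0.00048), while Ldha and Gapdh differed by -0.24 ± 0.21 and -0.05 ± 0.22. Of 27 Hox genes, 1 was higher (3.7%, against 5.05% of all genes). This was Hoxc13, at least 3.24-fold, a call lost with the slide as a block (adjusted p = 0.0534). None of the 23 Hox genes measured on all 6 arrays was called.

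**Figure D5:**
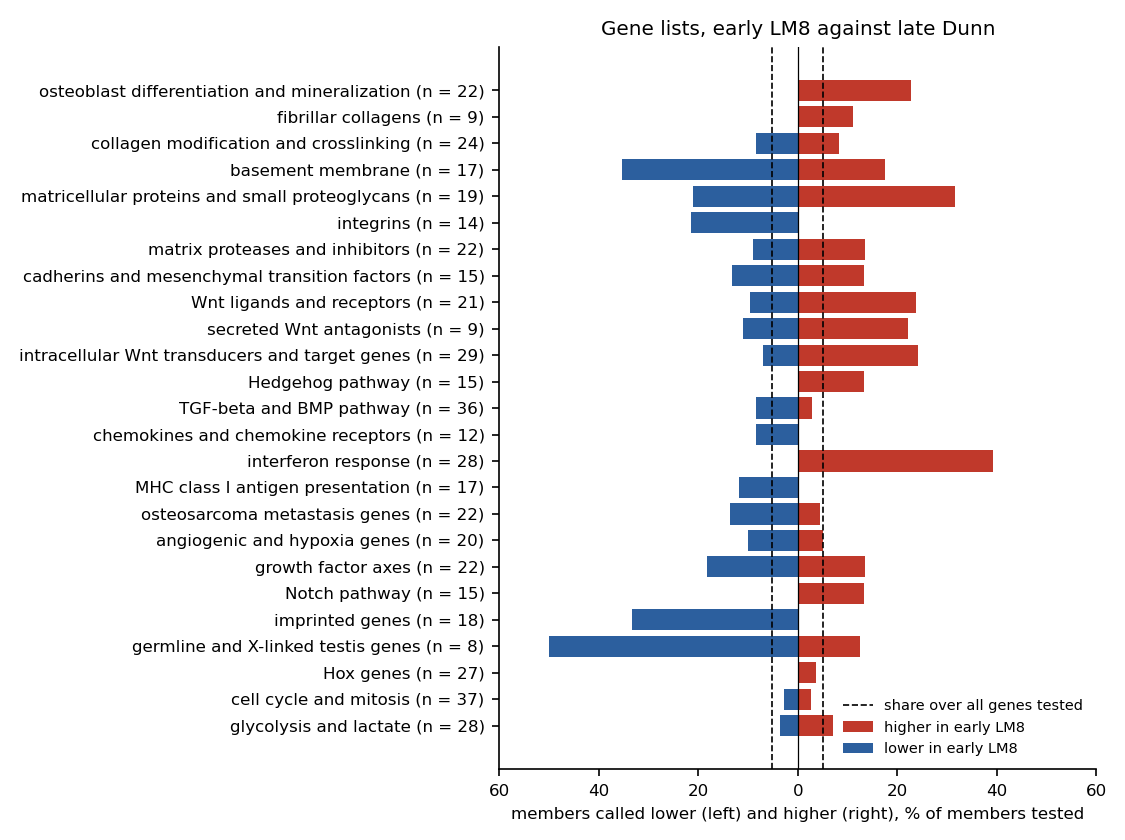
Share of the tested members of each gene list called lower (blue, to the left) and higher (red, to the right) in early LM8 than in late Dunn, in percent, with the number of members tested in brackets. Dashed lines mark the shares over all genes tested, 5.12% lower and 5.05% higher. The shares include members that entered through the group in which they are bright and so had to differ; the interferon response reaches 39.3% higher and the basement membrane 35.3% lower.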

How the data were processed

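Gene expression of cultured mouse cells was measured on Agilent 4x44k 1-colour arrays, 3 per group. The deposited intensity values are the processed signals of Agilent Feature Extraction 10.7.3, which the authors obtained after background subtraction, and the deposited table repeats them to within a relative difference of 0.00497. Groups follow the sample titles. Outlier-flagged spots were left out, 43020 non-control spots were averaged to 39429 probes, and log2 signals were scaled by subtracting each array's 75th percentile. That percentile was taken over all non-control probes with flagged spots included, because most flagged spots were bright; the other choice is among the alternatives. RefSeq tables matched 26581 probes (67.4%) to 20144 genes. Array number limits the precision.

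The tests were run in limma 3.58.1 (R 4.3.3) with Benjamini-Hochberg adjustment over all probes tested, after a check on simulated data. A gene was called if at least 1 probe had an adjusted p under 0.05 and changed over 2-fold. Genes were named by rule: the 12 rises and 12 falls of greatest size on all 6 arrays, the 8 bounds of greatest size in each direction, and per list up to 6 called members by adjusted p and up to 3 not called of highest signal. Predicted genes were passed over. Other called members of a list were named after their values were seen. The members and lists were chosen with earlier results of these data known. Replicate numbers equal slides in the file headers; deviations from the group means correlated between same-numbered arrays at 0.252, 0.176 and 0.356 over tested probes, so the blocked value is given where it changes a call. Alternatives were other scalings, background corrections, filters, models and left-out arrays. Promoter windows came from RefSeq tables, and a gene with several windows counts as holding the motif if any of them does.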

Additional observations from a re-analysis of the deposited data

Results flagged for a closer look

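The difference between LM8 and Dunn was not the same in the 2 pairings for 1121 genes, by a limma contrast over all 12 arrays. The genes listed here are those named by size and called in opposite directions in the 2 pairings. The line difference was higher in the first pairing by 8.72 log2 units for Cd99, 12.65 for Tmsb4x and 17.56 for Lxn. It was lower in the first pairing for Nlrp4c (-13.31), Rhox5 (-9.40), Rhox2e (-8.23) and Rhox2h (-7.30), the last 2 with the limit on paralogs. Other genes named by size also changed, such as Catsperz, by 8.95, which was called higher in both pairings. Lxn, Tmsb4x and Nlrp4c were not well above background in 1 or more groups, so their fitted values depend on dim signals. Time in culture differs between the pairings in both lines at once, and which line carried the change was not tested here.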

How the results depend on the processing

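No called gene named by the rule reversed under any alternative run, but calls were lost: of 132, 33, 35 and 29 without early LM8 replicates 1, 2 and 3, 26 without late Dunn replicate 3, 31 with the methods' t-test, 24 with normexp correction and 45 with no filter on dim probes. Of these calls, 91 passed in every fit that left out 1 array and tested the gene, and 2, Acvr1b and Cdc25b, in none. Those that passed in only 1 such fit were Cdc25a, Cer1, Col24a1, H2-K1, Hoxc13, Igfbp4, Loxl4, Mmp17, Plin1, Prrx1 and Sfrp4. Moreover, the median over all probes, -0.07, turned to 0.06 with quantile normalization and to 0.38 with the unscaled table. In what follows the first pairing is early LM8 against late Dunn (1240 genes, 616 higher, 624 lower), the second is late LM8 against early Dunn (3740 genes), 693 genes are shared in direction and 1121 changed between the pairings. With normexp background correction the second pairing gave 1973 genes, 499 changed and 418 were shared. The unscaled deposited table gave 320 genes lower in the first pairing, and 9146 genes in the second, 8906 higher and 241 lower (97.4% of the calls higher). With no filter on dim probes the first pairing gave 576 genes (237 higher, 339 lower, median -0.50), the second 2375, with 477 changed and 356 shared. Requiring signal on all arrays of both groups gave 351 higher and 417 shared. Array quality weights gave 944 higher and 2165 changed. The methods' t-test after Benjamini-Hochberg gave 735 genes (332 higher, 403 lower), 2157 in the second pairing and 395 shared. An unadjusted p under 0.05 gave 976 higher and 2368 changed. Without slide 1, chosen after seeing the data, the second pairing gave 2418 genes and 701 changed.

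Leaving out 1 array at a time gave 615 (without early LM8 replicate 2) to 1660 genes (without late Dunn replicate 1) in the first pairing, with 272 to 952 higher and 343 to 708 lower, and 396 to 781 shared for the same arrays. The second pairing ranged from 1758 (without late LM8 replicate 2) to 4741 genes (without early Dunn replicate 2), and the changed genes from 618 (without early LM8 replicate 1) to 1983 (without early Dunn replicate 2). In the paired analysis, with the slide as a replicate block, 1245 genes were called in the first pairing and 1795 changed between the pairings. The block ended 10 of the 132 calls of genes named by the rule, each given beside its value, and also those of Gbp3, Irf9, Lama2, Comp, Ppp2r5c and Cd44 (adjusted p = 0.0552, 0.0576, 0.0733, 0.0681, 0.0655 and 0.0713, limma). Signal over background limits the dim genes, above all on late Dunn replicate 1. The cause of these shifts was not tested.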

Other observations

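Called genes were spread over the chromosomes. The share of tested genes called lower in early LM8 ran from 2.65% on chromosome 12 to 8.5% on chromosome 6, and the share called higher from 2.89% on chromosome 6 to 8.19% on chromosome 12. These shares were not tested. Runs of neighbouring tested genes called in the same direction reached 4 genes. Among these runs, Rhox2c, Rhox2e, Rhox2h and Rhox5 on the X chromosome and Ttll4, Cyp27a1, Prkag3 and Wnt6 on chromosome 1 were lower in early LM8. Decr1, Nbn, Osgin2 and Ripk2 on chromosome 4 were higher.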
